A study of Mus musculus with 8 samples.

Results

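This account concerns the sodium pump (Na,K-ATPase) of the mouse inner medullary collecting duct (IMCD), through the transcripts of 2 of its beta subunits and 5 of the small FXYD proteins that modulate it. The members were taken by gene symbol from the deposited expression table: Atp1b1, Atp1b3, Fxyd2, Fxyd3, Fxyd4, Fxyd5 and Fxyd6, which are 7 of the 78298 gene identifiers listed. Their identifiers are ENSMUSG00000026576 for Atp1b1, ENSMUSG00000032412 for Atp1b3, ENSMUSG00000059412 for Fxyd2, ENSMUSG00000057092 for Fxyd3, ENSMUSG00000004988 for Fxyd4, ENSMUSG00000009687 for Fxyd5 and ENSMUSG00000066705 for Fxyd6. The RNA came from kidney and carries the cell type label IMCD. There were 4 libraries from AVP-flox;Cre mice and 4 from AVP-flox mice. Both genotypes carry loxP sites in the first intron and downstream of the vasopressin gene Avp, and both received tamoxifen, so the groups differ in the Cre recombinase alone as far as the labels say. The labels do not name the promoter that drives Cre or its form, and give no age or sex. They do not say whether each library is a separate animal. Where libraries share an animal, a p-value reflects technical spread alone.

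The sodium pump moves sodium out of the cell and potassium in, and in the collecting duct it sits in the basolateral membrane, where it drives the uptake of sodium that enters from the urine. Its alpha subunit carries out transport, its beta subunit is needed for folding and delivery to the membrane, and an FXYD protein can sit beside them and tune how strongly the pump binds sodium and potassium or how fast it turns over. In the kidney Fxyd2, the gamma subunit, lowers the pump's affinity for sodium and is rich in the thick ascending limb, while Fxyd4, also called CHIF, raises it and belongs to the collecting duct. Fxyd5, or dysadherin, raises the pump's maximal rate and affects contacts between epithelial cells. Fxyd3 and Fxyd6 also associate with the pump.

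Members lie beside each other in the genome and went in different directions, so their promoters are shown first. In the mouse annotation GENCODE M21 Fxyd5, Fxyd7, Fxyd1 and Fxyd3 are consecutive genes of the same strand on chromosome 7, apart from Lgi4 on the other strand, which overlaps Fxyd3. Fxyd6 and Fxyd2 are neighbours on chromosome 9, with 3509 bases between them. The sequences run from 250 bases before to 50 bases after the start site, from RefSeq on GRCm38.p6. The build behind the deposited values is not given in the sources used here. The first pair belongs to members that rose in AVP-flox;Cre, the second pair to members that fell, and the last to Fxyd4. Capitals mark the GC box GGGCGG on either strand.
Fxyd3, chr7:31076648-31076947, minus strand: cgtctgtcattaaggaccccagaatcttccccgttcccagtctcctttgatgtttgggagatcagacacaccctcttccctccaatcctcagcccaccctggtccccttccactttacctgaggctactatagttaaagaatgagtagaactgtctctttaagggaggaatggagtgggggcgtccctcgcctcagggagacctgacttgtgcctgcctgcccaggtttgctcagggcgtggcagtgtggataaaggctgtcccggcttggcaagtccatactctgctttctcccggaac
Fxyd6, chr9:45369935-45370234, plus strand: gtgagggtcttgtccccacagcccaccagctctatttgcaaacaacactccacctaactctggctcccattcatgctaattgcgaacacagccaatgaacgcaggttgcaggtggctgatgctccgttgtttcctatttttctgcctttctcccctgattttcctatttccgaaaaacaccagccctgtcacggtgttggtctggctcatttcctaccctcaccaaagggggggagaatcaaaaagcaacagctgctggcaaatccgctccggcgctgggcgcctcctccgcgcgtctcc
Fxyd5, chr7:31042282-31042581, minus strand: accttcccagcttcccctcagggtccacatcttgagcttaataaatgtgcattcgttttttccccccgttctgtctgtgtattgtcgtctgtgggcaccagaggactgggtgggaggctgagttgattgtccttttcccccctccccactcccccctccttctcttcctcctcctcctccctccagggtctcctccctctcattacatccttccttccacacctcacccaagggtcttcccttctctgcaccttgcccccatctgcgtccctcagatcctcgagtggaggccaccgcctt
Atp1b1, chr1:164458306-164458605, minus strand: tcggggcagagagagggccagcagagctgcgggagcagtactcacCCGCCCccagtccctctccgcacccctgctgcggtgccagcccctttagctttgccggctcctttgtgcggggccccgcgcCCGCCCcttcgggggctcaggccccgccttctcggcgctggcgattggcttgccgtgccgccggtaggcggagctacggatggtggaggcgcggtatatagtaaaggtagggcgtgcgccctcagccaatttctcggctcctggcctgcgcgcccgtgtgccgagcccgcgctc
Fxyd4, chr6:117937286-117937585, minus strand: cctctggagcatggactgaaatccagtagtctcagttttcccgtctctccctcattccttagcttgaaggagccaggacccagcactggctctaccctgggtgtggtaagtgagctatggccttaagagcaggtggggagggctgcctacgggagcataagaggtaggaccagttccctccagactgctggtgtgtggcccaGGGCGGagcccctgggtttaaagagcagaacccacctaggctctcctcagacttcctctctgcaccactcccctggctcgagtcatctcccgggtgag

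The table of promoters matched 6 of the 7 members (not Fxyd2), with 2 start sites for Atp1b3. The GC box stands in 35.7% of all 32851 promoters of this length. It occurs 6 times at 1 of the Atp1b3 start sites and not at the other, 2 times in the Atp1b1 window and 1 time in that of Fxyd4, and the windows of Fxyd3, Fxyd5 and Fxyd6 do not hold these letters. The GC content of the windows was 55% for Fxyd3, 54.3% for Fxyd6, 57.3% for Fxyd5, 71% for Atp1b1 and 58.7% for Fxyd4. Both strands were also searched for the nuclear receptor motif AGGTCA, for the cAMP response element as its core TGACG and as the palindrome that contains this core, for the tonicity element core TGGAAA, for the steroid receptor motif TGTTCT, for the TATA box TATAAA and for the palindromic estrogen response element. Among the members they occurred only in the Atp1b3 windows, where TGACG was found at both start sites and TGGAAA at 1 of them. Of all promoters, 20.8% hold TGACG and 21.4% hold TGGAAA.

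Values are TPM, which are scaled for transcript length and to the same total in each library. Levels can therefore be compared between genes, but the number of reads behind a value is unknown. The collecting duct was well represented: Aqp2, the vasopressin-regulated water channel, stood at 5443 to 7036 TPM in AVP-flox;Cre, against 14915 to 18131 TPM in AVP-flox. Avp, the targeted gene, is made in the hypothalamus. It did not exceed 0.27 TPM in AVP-flox;Cre or 0.24 TPM in AVP-flox, so kidney RNA gives no check of the deletion. The libraries also held RNA of other segments. Umod and Slc12a1, which define the thick ascending limb, together reached 475 to 701 TPM in AVP-flox;Cre. In AVP-flox they reached 1716 to 2087 TPM in replicates 1, 3 and 4, but 286 TPM in replicate 2. AVP-flox 2 is therefore apart from the rest of its group in this respect, and values with it as the lone AVP-flox library are given where they matter.

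All 7 members were expressed, and their order of level was the same in both groups. Fxyd2 was highest, followed by Fxyd4, Atp1b1, Atp1b3, Fxyd5, Fxyd6 and Fxyd3, and the ranges of neighbours in this order did not overlap within either group. By mean TPM Fxyd2 ranked 16 among all genes in AVP-flox;Cre, against 7 in AVP-flox, and Fxyd4 ranked 20 in AVP-flox;Cre, against 27 in AVP-flox. Fxyd3, at the other end, averaged 22.7 TPM in AVP-flox;Cre, against 11.0 TPM in AVP-flox. The coefficient of variation within a group ran from 2.58% for Atp1b3 to 23.3% for Fxyd3, both in AVP-flox;Cre.

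All 7 were tested, and 5 changed: Fxyd3 and Fxyd6 rose, Fxyd2, Fxyd5 and Atp1b1 fell, and Fxyd4 and Atp1b3 did not pass the test. The test was limma on log2(TPM + 1) over 19043 genes with Benjamini-Hochberg adjustment and a threshold of 0.05. It called 27.3% of all tested genes, 13.1% higher and 14.2% lower, so a call is common in this comparison. Calls were more frequent among genes of higher level. With a filter at a mean of 5 TPM, which all 7 members exceed, 4714 of 11955 genes were called. The groups did not overlap for the same 5 members, against 29.5% of all tested genes. The median log2 fold change was -0.06 over the members and -0.01 over all tested genes. Fold changes on this scale understate those of low genes.

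**Figure D1:**
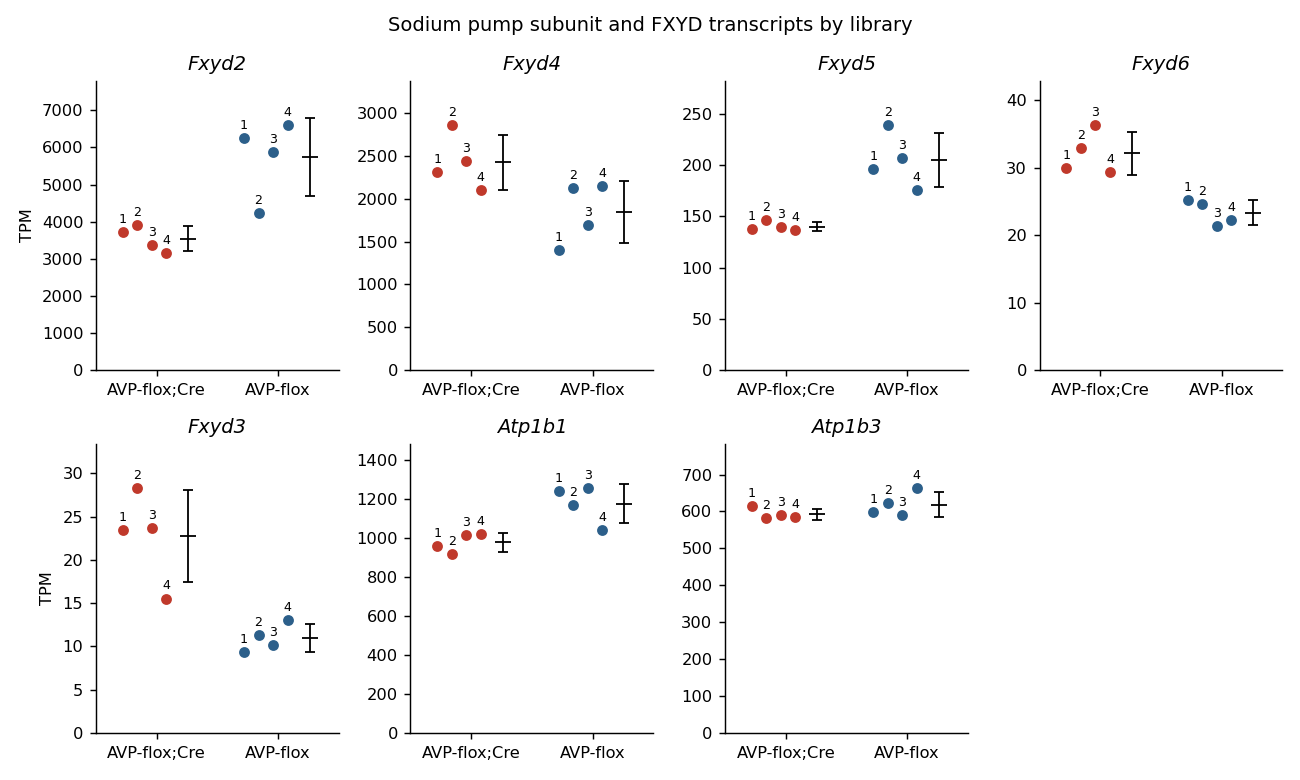
TPM of the 7 members in each library, AVP-flox;Cre on the left (red) and AVP-flox on the right (blue). Numbers are replicates, and the bar beside each group is its mean with 1 SD (n = 4). In AVP-flox, replicate 2 is lowest for Fxyd2 and highest for Fxyd5.

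Fxyd2, the gamma subunit, was the most abundant member and fell in AVP-flox;Cre. Its TPM was 3732, 3920, 3369 and 3155 in AVP-flox;Cre 1 to 4, against 6254, 4235, 5871 and 6599 in AVP-flox 1 to 4. The groups did not overlap, and AVP-flox 2 was closest to the other genotype. The means were 3544 ± 346 TPM in AVP-flox;Cre, against 5740 ± 1046 TPM in AVP-flox (SD, n = 4 each), a 1.62-fold lower level. The log2 fold change was -0.68 (SE 0.14, limma adjusted p = 0.00514). An exact permutation test of the mean TPM gave p = 0.0286 (two-sided), the smallest that 4 against 4 allows. In the annotation Fxyd2 follows Fxyd6 on the same strand, and a gene total does not separate transcripts that start at different sites of Fxyd2.

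Among the AVP-flox libraries Fxyd2 moved with the thick limb markers Umod and Slc12a1. AVP-flox 1, 3 and 4 were high in both, and AVP-flox 2 was lowest of its group in both. Set beside AVP-flox;Cre, AVP-flox 2 was below every library in the sum of these 2 markers but above every one in Fxyd2. Within AVP-flox;Cre, replicate 4 was lowest in Fxyd2, with a marker sum of 678 TPM in a range of 475 to 701 TPM. Umod, which encodes uromodulin, was at 458, 521, 377 and 488 TPM in AVP-flox;Cre 1 to 4, against 1404, 188, 1139 and 1162 TPM in AVP-flox 1 to 4. Slc12a1, the sodium-potassium-chloride cotransporter of that segment, was at 97.3 to 190 TPM in AVP-flox;Cre, against 98.3 TPM in AVP-flox 2 and 577 to 682 TPM in the other AVP-flox libraries. Neither marker passed the test (limma adjusted p = 0.343 for Umod and 0.0876 for Slc12a1). Over the list of 6 markers of the thick limb and distal convoluted tubule, the summed level was 1344 to 1578 TPM in AVP-flox;Cre, against 933 to 2739 TPM in AVP-flox. Of its 5 tested members, the claudin genes Cldn16 and Cldn10 rose and 3 did not pass, where 13.1% of all tested genes rose. Slc12a3 and Pvalb, which define the distal convoluted tubule, were below 5 TPM in every library.

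With the summed Umod and Slc12a1 level as a covariate, the fall of Fxyd2 was smaller, at -0.49 (limma adjusted p = 0.00547). These are 2 of the 6 listed markers of the thick limb and distal convoluted tubule. Within AVP-flox the spread of their sum comes mainly from AVP-flox 2. Whether thick limb RNA accounts for the fall of Fxyd2 was not tested. In AVP-flox 2 the sum of Umod and Slc12a1 was 286 TPM, the lowest of the 8 libraries, and Fxyd2 was at 4235 TPM. With AVP-flox 2 as the lone AVP-flox library the difference was -0.26. A single library gives no spread within its group, so no call is read from this setting. In bulk RNA, fewer cells of a type and less RNA per cell cannot be told apart. Both settings were chosen after seeing the data.

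**Figure D2:**
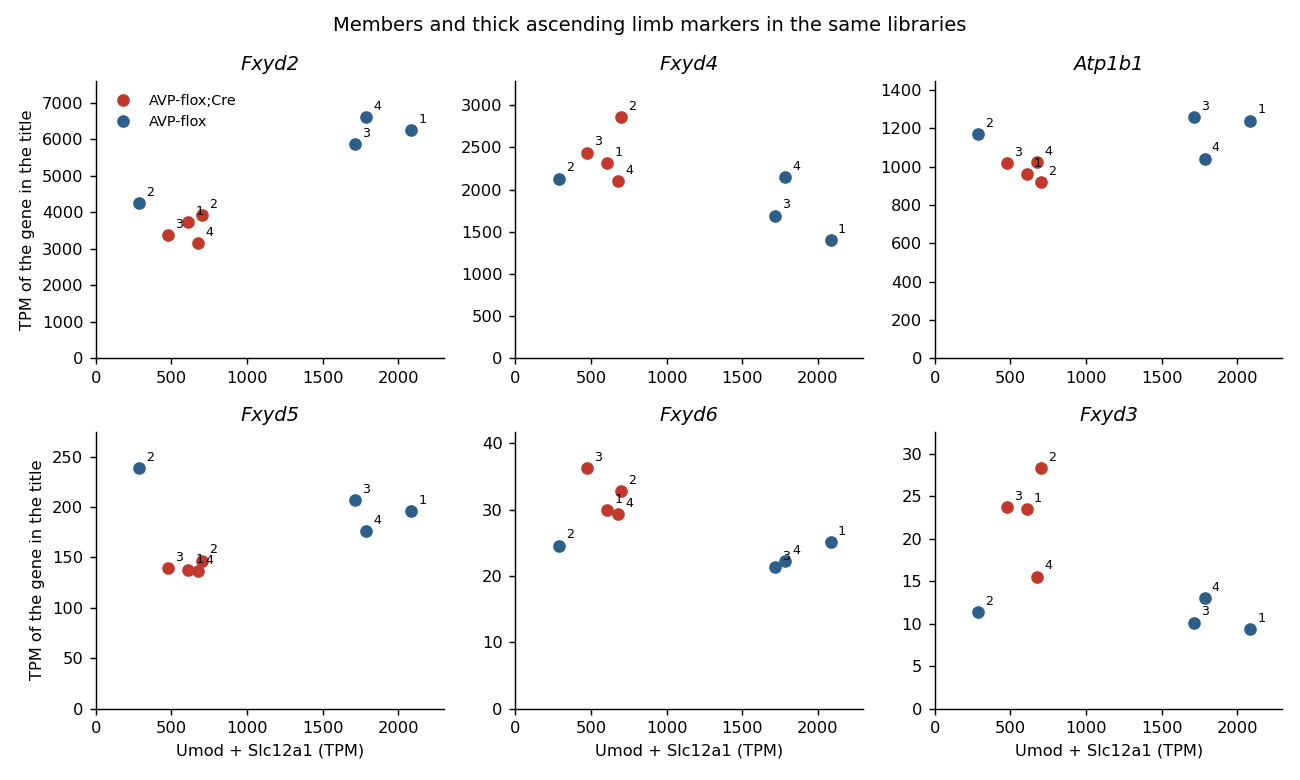
TPM of Fxyd2, Fxyd4, Atp1b1, Fxyd5, Fxyd6 and Fxyd3 (vertical axes) against the summed TPM of the thick limb markers Umod and Slc12a1 (horizontal axes), AVP-flox;Cre in red and AVP-flox in blue, with replicate numbers. Fxyd2 is high where the markers are high, at 1716 to 2087 TPM, and AVP-flox 2, with the markers at 286 TPM, lies just above the red points for Fxyd2 and is the highest library for Fxyd5.

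Fxyd4, the collecting duct member, was the next most abundant and did not pass the test. It stood at 2312, 2859, 2439 and 2097 TPM in AVP-flox;Cre 1 to 4, against 1404, 2131, 1691 and 2151 TPM in AVP-flox 1 to 4. The groups overlapped, since AVP-flox;Cre 4 was below AVP-flox 2 and 4. The means were 2427 ± 321 TPM in AVP-flox;Cre, against 1844 ± 362 TPM in AVP-flox (SD, n = 4 each). The log2 fold change was 0.41 (95% interval 0.08 to 0.73, limma adjusted p = 0.0623, exact permutation p = 0.0857). Leaving out AVP-flox 2 put it past the threshold (0.49, limma adjusted p = 0.0443), and so did leaving out AVP-flox 4 (0.49, adjusted p = 0.0429). Leaving out AVP-flox 1 gave 0.28 (limma adjusted p = 0.129), and AVP-flox 2 as the lone AVP-flox library gave 0.18. With the thick limb covariate it was 0.30 (adjusted p = 0.201).

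Fxyd2 and Fxyd4, whose proteins shift the pump's sodium affinity in opposite directions, made up nearly all FXYD transcripts. Of the summed TPM of Fxyd1 to Fxyd7, Fxyd2 held 57.0 ± 1.8% in AVP-flox;Cre, against 72.8 ± 6.6% in AVP-flox (SD, n = 4 each). Fxyd4 held 39.0 ± 1.8% in AVP-flox;Cre, against 23.8 ± 6.0% in AVP-flox. Library by library, the Fxyd2 share was 59.4, 55.5, 55.6 and 57.6% in AVP-flox;Cre 1 to 4, against 79.1, 63.6, 75.1 and 73.4% in AVP-flox 1 to 4. The ranges did not overlap, and AVP-flox 2 was again closest to the other genotype. The ratio of Fxyd2 to Fxyd4 was 1.37 to 1.61 in AVP-flox;Cre, against 1.99 to 4.45 in AVP-flox. The FXYD sum itself was 6219 ± 655 TPM in AVP-flox;Cre, against 7845 ± 952 TPM in AVP-flox. These shares are a description and were not tested, and a share of 1 member cannot fall without that of others rising.

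**Figure D3:**
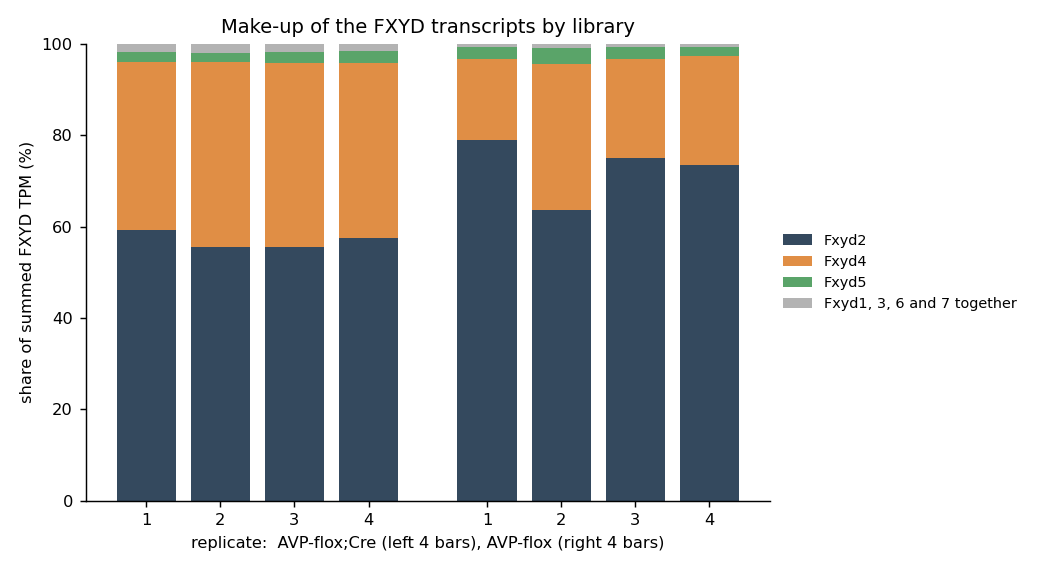
Share of each FXYD gene in the summed FXYD TPM (vertical axis, %), 1 bar per library, AVP-flox;Cre left and AVP-flox right. The Fxyd2 share is 55.5 to 59.4% in AVP-flox;Cre, against 63.6 to 79.1% in AVP-flox, and Fxyd4 takes most of the rest.

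Fxyd5, the dysadherin gene, fell in AVP-flox;Cre. Its TPM was 138, 147, 140 and 136 in AVP-flox;Cre 1 to 4, against 196, 239, 207 and 176 in AVP-flox 1 to 4. The low libraries were close to each other and all below the lowest AVP-flox library. The means were 140 ± 5 TPM in AVP-flox;Cre, against 205 ± 26 TPM in AVP-flox, a 1.46-fold lower level (log2 fold change -0.54, SE 0.09, limma adjusted p = 0.00206, exact permutation p = 0.0286). AVP-flox 2, lowest in Umod, was highest in Fxyd5. With AVP-flox 2 as the lone AVP-flox library the fall was -0.77. The fall of Fxyd5 was past the threshold in every alternative that kept more than a single AVP-flox library. Leukocytes also express Fxyd5. Of their 8 markers Csf1r rose, where 13.1% of all tested genes did, 6 did not pass and Itgam was too low to test. The summed level of those markers was 242 to 426 TPM in AVP-flox;Cre, against 170 to 417 TPM in AVP-flox, and their part in the fall of Fxyd5 was not tested.

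Fxyd3 had the largest log2 fold change of the 7 members and the lowest level. It stood at 23.4, 28.3, 23.7 and 15.5 TPM in AVP-flox;Cre 1 to 4, against 9.34, 11.4, 10.1 and 13.0 TPM in AVP-flox 1 to 4. The groups did not overlap, though replicate 4 of each genotype lay close to the other. The mean was 22.7 ± 5.3 TPM in AVP-flox;Cre, against 11.0 ± 1.6 TPM in AVP-flox (SD, n = 4 each), a 2.07-fold rise with a log2 fold change of 0.97 (SE 0.17, limma adjusted p = 0.00311). Set against AVP-flox 2 alone the rise was 0.91, and 1 library gives no spread within AVP-flox. Fxyd3 overlaps Lgi4 on the opposite strand, and whether the counting used strand is not given in the sources used here. Lgi4 was listed at 0.09 to 0.49 TPM over the 8 libraries.

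Markers of the papillary surface and urothelium moved with Fxyd3. Of the 8 listed, 6 rose, Upk2 did not pass, and Krt20, which marks mature urothelium, was near 0 and not tested. Their summed level was 5007 to 5757 TPM in AVP-flox;Cre, against 1786 to 2812 TPM in AVP-flox, most of it from Psca. The share that rose over all tested genes was 13.1%, and the part of these markers in the rise of Fxyd3 was not tested. AVP-flox;Cre 4 was lowest of its group both in that sum and in Fxyd3.

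Fxyd6, known from the brain and inner ear, rose as well. Its TPM was 29.9, 32.8, 36.3 and 29.3 in AVP-flox;Cre 1 to 4, against 25.1, 24.6, 21.3 and 22.2 in AVP-flox 1 to 4, with no overlap. The mean was 32.1 ± 3.2 TPM in AVP-flox;Cre, against 23.3 ± 1.9 TPM in AVP-flox (SD, n = 4 each), a 1.38-fold rise (log2 fold change 0.44, SE 0.10, limma adjusted p = 0.00826). Its neighbour Fxyd2 fell. In the 5 libraries that remain when AVP-flox;Cre 2 and 4 and AVP-flox 2 are left out, the rise of Fxyd6 was 0.51 and not past the threshold (limma adjusted p = 0.0520). Set against AVP-flox 2 alone, again with no spread within AVP-flox, the rise was 0.37.

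Of the beta subunits, Atp1b1, the main renal form, fell by less than Fxyd2 and Fxyd5. It was at 961, 920, 1016 and 1023 TPM in AVP-flox;Cre 1 to 4, against 1240, 1169, 1258 and 1042 TPM in AVP-flox 1 to 4. The groups did not overlap, but replicate 4 of each genotype lay close to the other. The means were 980 ± 49 TPM in AVP-flox;Cre, against 1178 ± 98 TPM in AVP-flox (SD, n = 4 each). The log2 fold change was -0.26 (SE 0.07, limma adjusted p = 0.0261). Atp1b1 overlaps Nme7 on the opposite strand, which was at 54.8 to 67.0 TPM in AVP-flox;Cre, against 44.7 to 58.6 TPM in AVP-flox, and did not pass the test.

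The call on Atp1b1 was not firm. It ended without AVP-flox;Cre 1 (-0.25, adjusted p = 0.0664), AVP-flox;Cre 2 (-0.23, adjusted p = 0.0606), AVP-flox 1 (-0.24, adjusted p = 0.0627) or AVP-flox 3 (-0.23, adjusted p = 0.0792), each with limma. The first 300 nt of its longest transcript hold 72% GC, and with each library corrected for its trend with that GC content the difference was -0.18 (limma adjusted p = 0.124). Its size changed little with the thick limb covariate (-0.26, adjusted p = 0.0556).

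Atp1b3, a beta subunit of wide distribution, was the steadiest member and did not pass the test. It stood at 615, 582, 589 and 584 TPM in AVP-flox;Cre 1 to 4, against 599, 623, 589 and 664 TPM in AVP-flox 1 to 4. The groups overlapped, with AVP-flox 2 and 4 above every library of the other genotype. The log2 fold change was -0.06 (95% interval -0.19 to 0.07, limma adjusted p = 0.489). Its direction was reversed, at 0.11, with the GC correction, and its first 300 nt hold 76% GC. Of the summed TPM of Atp1b1 to Atp1b4, Atp1b1 held 61.6 ± 1.4% in AVP-flox;Cre, against 64.7 ± 3.1% in AVP-flox, and Atp1b3 held 37.3 ± 1.3% in AVP-flox;Cre, against 34.1 ± 3.1% in AVP-flox (SD, n = 4 each).

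**Figure D4:**
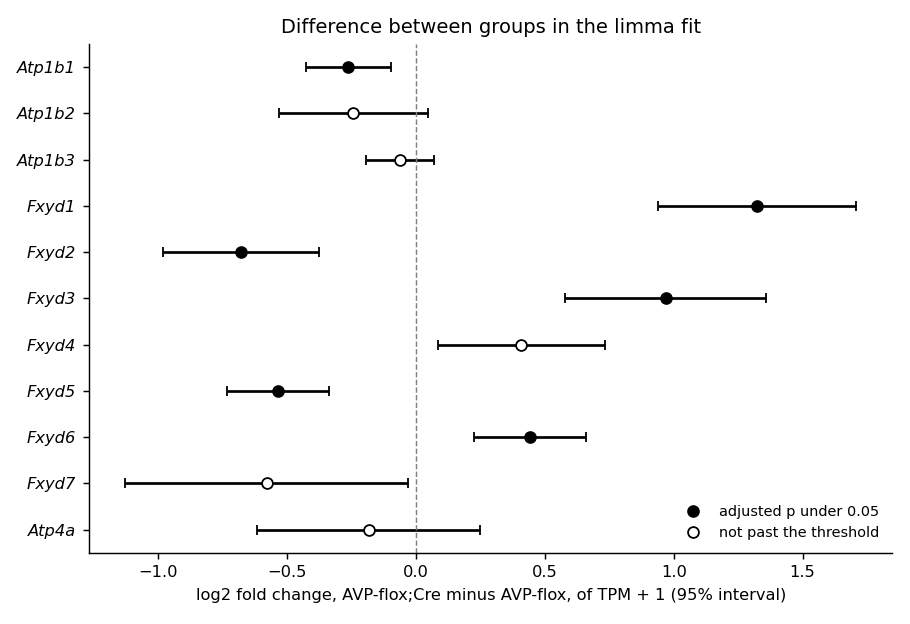
Log2 fold change of TPM + 1, AVP-flox;Cre minus AVP-flox (horizontal axis), with its 95% interval for each tested sodium pump, FXYD and related gene. Filled points passed the threshold: Atp1b1, Fxyd2 and Fxyd5 lie below 0, and Fxyd1, Fxyd3 and Fxyd6 lie above 0.

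**Figure D5:**
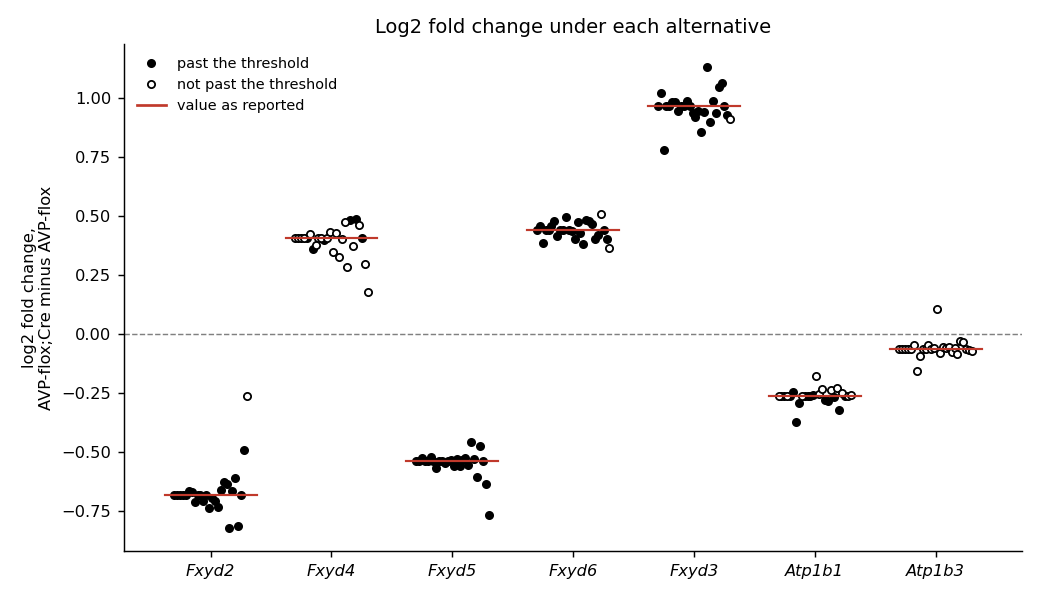
Log2 fold change of each member, AVP-flox;Cre minus AVP-flox (vertical axis), under each of the 26 alternatives (points), with the reported value as a red line. Filled points passed the threshold: all do for Fxyd5 (-0.77 to -0.46), none does for Atp1b3, and Atp1b1 and Fxyd4 hold both kinds.

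Other pump and FXYD genes were followed as a list of 7. Of these, 4 reached a mean of 1 TPM and were tested, 1 rose and 3 did not pass, where 13.1% of all tested genes rose. Fxyd1, or phospholemman, which protein kinase A phosphorylates in heart, rose more than any of the 7 members. It was at 51.8, 69.3, 47.3 and 41.3 TPM in AVP-flox;Cre 1 to 4, against 19.2, 16.9, 18.6 and 26.2 TPM in AVP-flox 1 to 4, with no overlap. The log2 fold change was 1.32 (SE 0.17, limma adjusted p = 0.000536). Fxyd1 passed in every alternative that kept more than a single AVP-flox library. Of its neighbours on chromosome 7, Fxyd3 rose and Fxyd5 fell. Fxyd7, a brain member, averaged 1.08 ± 0.64 TPM in AVP-flox;Cre, against 2.02 ± 0.22 TPM in AVP-flox, and did not pass (limma adjusted p = 0.111). Atp1b2 averaged 18.1 ± 3.5 TPM in AVP-flox;Cre, against 21.4 ± 0.9 TPM in AVP-flox, and did not pass either (adjusted p = 0.195). The gastric proton pump gene Atp4a averaged 4.53 ± 1.39 TPM in AVP-flox;Cre, against 5.16 ± 0.57 TPM in AVP-flox (adjusted p = 0.528). The beta subunit genes Atp1b4 and Atp4b and the colonic proton pump gene Atp12a were each below 1 TPM in every library and not tested.

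Genes that act on or beside the pump gave mixed results. Of 20 regulators and scaffold genes, 16 were tested, 3 rose, 1 fell and 12 missed the threshold. Over all tested genes 27.3% were called. The median log2 fold change of the list was 0.08, against -0.01 over all tested genes. Add1, an adducin of the membrane skeleton to which the pump is anchored, rose by 0.41 (limma adjusted p = 0.00180), at 211 ± 13 TPM in AVP-flox;Cre, against 158 ± 8 TPM in AVP-flox. The spectrin gene Sptbn1 rose by 0.20 (limma adjusted p = 0.0275) and Nr3c2, the mineralocorticoid receptor, by 0.38 (adjusted p = 0.0105). Sik1, a salt-inducible kinase, fell by 1.08 to 5.55 ± 1.66 TPM in AVP-flox;Cre, against 13.5 ± 5.8 TPM in AVP-flox (limma adjusted p = 0.0224). The groups overlapped for Sik1, since AVP-flox 1 was at 6.97 TPM and AVP-flox;Cre 3 at 7.80 TPM. Sgk1, the aldosterone-induced kinase that raises sodium transport, averaged 1661 ± 193 TPM in AVP-flox;Cre, against 1574 ± 401 TPM in AVP-flox, and did not pass (adjusted p = 0.679).

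Among 12 genes of sodium and potassium paths that work with the pump, all tested, 4 rose, 1 fell and the other 7 missed the threshold. The median log2 fold change of the list was 0.34, and 27.3% of all tested genes were called. Kcnq1, a potassium channel subunit, rose 2.26-fold, to 73.6 ± 4.4 TPM in AVP-flox;Cre against 32.6 ± 5.0 TPM in AVP-flox (limma adjusted p = 0.000119). Scnn1b and Scnn1g, subunits of the epithelial sodium channel that lets sodium in from the urine, rose by 1.28 and 1.23 on the log2 scale (limma adjusted p = 8.1e-05 and 0.000527), while Kcnj16, a basolateral potassium channel subunit, fell by 2.13 (adjusted p = 3.5e-05). Kcnj1, the potassium channel of the thick limb, was at 23.2 to 47.4 TPM in AVP-flox;Cre, against 19.2 to 155 TPM in AVP-flox, with AVP-flox 2 lowest, and did not pass (adjusted p = 0.115). In the tonicity list 7 of 8 genes were found and tested, 2 rose, 2 fell and 3 did not pass. The share called over all tested genes is the same 27.3%. Hspa4l, a chaperone, and Slc5a3, the myo-inositol transporter, fell by 1.44 and 0.79 (limma adjusted p = 0.000212 and 0.00281). Nfat5, the transcription factor of the response, and Slc6a6, the taurine transporter, rose by 0.79 and 0.38 (limma adjusted p = 0.00664 and 0.00909).

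For each changed member, the genes whose log2(TPM + 1) followed it most closely over the 8 libraries were sought among 9753 genes. These correlations are descriptions, since the difference between groups is shared by all genes that changed. The genes named are the highest of 9753 over only 8 libraries. Such a search by itself favours a high r, also where the group difference is removed. Those closest to Fxyd2 were Cyc1 (r = 0.99), Ndufb6 (r = 0.99) and Atp5mc1 (r = 0.99), all of the mitochondrial respiratory chain or ATP synthase. Taken as deviations from the group means, the closest were Atp5pf (r = 1.00), Cyc1 (r = 0.98) and Uqcr10 (r = 0.98), from the same machinery. Cyc1 was at 303 ± 17 TPM in AVP-flox;Cre, against 426 ± 47 TPM in AVP-flox, and fell by 0.48 (limma adjusted p = 0.00308). Atp5pf averaged 1377 ± 62 TPM in AVP-flox;Cre, against 1337 ± 138 TPM in AVP-flox, and did not pass (adjusted p = 0.710).

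The genes closest to the other members were of mixed kinds. Over all libraries they were Sema4b, Alg9 and BC005624 for Fxyd5 (r = 0.99 each), Pcbd1, Ost4 and Acaa1a for Fxyd3 (r = 0.98 to 0.99), Mitd1, Ptp4a3 and Slc41a2 for Fxyd6 (r = 0.97 to 0.98), and Ptpdc1, Hspa4 and C130046K22Rik for Atp1b1 (r = 0.98 to 0.99). As deviations from the group means they were Ormdl2, Sh3bgrl3 and Alg9 for Fxyd5 (r = 0.98 each), Rpl17, Eif3i and Rps15 for Fxyd3 (r = 0.98 to 0.99), Dimt1, Lrrc28 and Zswim9 for Fxyd6 (r = 0.93 to 0.95), and Bcl2l1, Zfp810 and Cda for Atp1b1 (r = 0.99 to 1.00). Alg9 and Cyc1 were the genes close to a member by both measures.

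Markers of other cells in these libraries were counted beside the members. Of all tested genes 13.1% rose and 14.2% fell, which is the background for these counts. Of 8 collecting duct markers Slc14a2 and Cdh16 rose, and the water channel genes Aqp2, Aqp3 and Aqp4 and the transcription factor gene Elf5 fell. Avpr2 and Hsd11b2 did not pass. The median log2 fold change of these markers was -0.25. Their summed level was 11125 to 13305 TPM in AVP-flox;Cre, against 19776 to 23402 TPM in AVP-flox, with no overlap. Aqp2 was the largest part of that sum, at a mean of 6304 TPM in AVP-flox;Cre, against 15995 TPM in AVP-flox. Cdh16 averaged 3238 TPM in AVP-flox;Cre, against 1830 TPM in AVP-flox. The sum is therefore no measure of the amount of collecting duct RNA. Of the thin limb markers 4 rose and 2 did not pass, and their summed level was 2507 to 2742 TPM in AVP-flox;Cre, against 1723 to 2156 TPM in AVP-flox. Of the intercalated cell markers 2 of 5 tested rose, with a summed level of 228 to 305 TPM in AVP-flox;Cre, against 156 to 263 TPM in AVP-flox. Of 5 tested proximal tubule markers 0 passed in limma, and their sum was 93.2 to 245 TPM in AVP-flox;Cre, against 42.4 to 671 TPM in AVP-flox. Endothelial markers had 1 higher and 2 lower of 5, with a summed level of 1729 to 1798 TPM in AVP-flox;Cre, against 2174 to 2261 TPM in AVP-flox. Fibroblast and pericyte markers had 2 higher of 5 tested, with a summed level of 226 to 289 TPM in AVP-flox;Cre, against 110 to 150 TPM in AVP-flox, and Lum was listed at 0 in some libraries. The part of these cells in the values of the members was not tested.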

How the data were processed

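RNA was sequenced from mouse kidney labelled IMCD in 8 libraries, 4 per genotype. Per the labels' protocols, SMART-Seq HT cDNA came from 1 ng RNA, amplified in 11 cycles, and libraries were made with Nextera XT and read from both ends over 50 bp. The submitters' processing notes list the aligner STAR and the quantifier RSEM. The values are TPM per Ensembl gene, deposited by the authors, and the columns add up to 1000000 within 2.04. Read counts cannot be had from TPM, so the depth is unknown and no interval for counting error is given. Columns named KO were read as AVP-flox;Cre and those named WT as AVP-flox, by replicate number.

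Identifiers that share a symbol were summed. A gene was tested where its mean over the libraries reached 1 TPM. Values were taken as log2(TPM + 1) and compared with limma 3.58.1 (trend) in R 4.3.3, two-sided, with Benjamini-Hochberg adjustment over 19043 genes. The procedure was tested on simulated data with that number of genes, where it recovered 83.8% of changes of 1 and 97.6% of changes of 2 on the log2 scale. Single genes also had an exact permutation test of mean TPM. GC content came from the longest GENCODE M21 transcript and covered 84.2% of tested genes. Genes named were the members, the list of other pump and FXYD genes (some of which are not reported here), up to 4 changed genes with the smallest adjusted p of each further list, and the 3 genes most correlated with each changed member among those of at least 10 TPM. Umod, Slc12a1, Kcnj1, Sgk1, Lgi4, Nme7 and other markers were named after their values were seen. The members, lists and tests were chosen with earlier results of these data known. Of the 26 alternatives, 2 were added after seeing the data. The threshold of 0.1 reuses the main fit, so it cannot end a call. Leaving identifiers unsummed does not change the fold changes of the members.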

Additional observations from a re-analysis of the deposited data

Results flagged for a closer look

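In 140 groups of 4 libraries examined, 7 held a library far from the other 3 of its group (Dixon's test), where chance flags about 1 in 20 groups. The one that touches the members is the summed level of thick limb and distal convoluted tubule markers, which was 933 TPM in AVP-flox 2 and 2475 to 2739 TPM in the other AVP-flox libraries. The thin limb markers were lowest in AVP-flox 1, at 1723 TPM against 2093 to 2156 TPM in the others.

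Near 0, Atp1b4 was at 0.39 TPM in AVP-flox;Cre 4 against 0 to 0.06 TPM in the other AVP-flox;Cre libraries. AVP-flox 1 was lowest of its group for Kcnq1, at 25.2 TPM against 34.6 to 35.97 TPM, and for Slc6a6, at 35.6 TPM against 39.4 to 39.7 TPM. Of the genes that followed a member, Ormdl2 was highest in AVP-flox;Cre 2, at 247 TPM against 231 to 233 TPM, and Slc41a2 in AVP-flox;Cre 3, at 27.2 TPM against 21.5 to 22.4 TPM. None of the 7 members had such a library in either group.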

How the results depend on the processing

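Over 26 alternatives Fxyd5 kept its direction (-0.77 to -0.46). Where more than a single AVP-flox library was kept, Fxyd5 kept its call and Atp1b3 never passed. Fxyd2 (-0.82 to -0.26), Fxyd3 (0.78 to 1.13) and Fxyd6 (0.37 to 0.51) kept their direction. With AVP-flox 2 as the lone AVP-flox library, Fxyd2 was at -0.26, Fxyd3 at 0.91, Fxyd6 at 0.37 and Atp1b1 at -0.26. No call is read from that setting. Fxyd6 (0.51) and Atp1b1 (-0.25) were not past the threshold with AVP-flox;Cre 2 and 4 and AVP-flox 2 left out. Counting the setting with a lone AVP-flox library, the call on Atp1b1 ended in 11 of 26 alternatives. These include a replicate block, limma without the trend, no filter and the thick limb covariate (-0.26 in each, adjusted p = 0.0514, 0.0725, 0.0509 and 0.0556) and the GC correction (-0.18), and it ran from -0.32 to -0.23 with 1 library left out. Fxyd4 passed with a filter at 5 TPM (0.41), quantile normalization (0.36), sample weights (0.40) and a threshold of 0.1 (0.41), and ran from 0.28 to 0.49 with 1 library left out. The cause of these differences between settings was not tested.

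The count of changed genes was 3409 with no filter, 2560 with AVP-flox;Cre 2 and 4 and AVP-flox 2 left out, 1191 with AVP-flox 2 as the lone AVP-flox library, and 4006 to 4767 with 1 library left out. With 1 library left out, the difference in the Fxyd2 share ran from -18.8 to -13.7 percentage points, that of Fxyd4 from 13.1 to 17.9, and that of Atp1b1 from -4.57 to -2.25. Libraries with the same replicate number did not deviate together (r = 0.00 to 0.09), so the numbers were not taken as pairs. The replicate block gave 4431 changed genes and, of the 7 members, ended only the call on Atp1b1. With the pattern of Xist and Y-linked genes as a covariate, the calls on the 7 members did not change. Atp1b1 was then at -0.26 (limma adjusted p = 0.0420).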
